A study of Homo sapiens with 6 samples.

Results

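The G2 and mitosis genes are 40 genes that act between the end of DNA replication and the division of the cell, from cyclin A2 and CDK1 through the spindle checkpoint to cytokinesis. They were picked by gene symbol, from a list written with earlier results of these data known. All 40 were found among the 16330 genes of the deposited tables. The RNA came from HN12, an established human line of head and neck squamous cell carcinoma, in 3 libraries of cells given CPI-613 and 3 libraries of cells given the solvent DMSO, called Control, each for 24 h. CPI-613 (devimistat), an analogue of lipoate, is aimed at the mitochondrial enzymes that oxidise pyruvate and 2-oxoglutarate. Both groups are the same unmodified line as far as the labels say, and the dose of CPI-613 is not given in the sources used here. No label ties a replicate to a culture of its own, so every p-value below speaks of the spread between these libraries, part of which may be technical.

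Mitosis starts when CDK1, bound to cyclin A or cyclin B, is switched on by CDC25 phosphatases, and the Polo and Aurora kinases then build the spindle. The spindle checkpoint holds back the anaphase-promoting complex until each kinetochore is attached to microtubules, and that complex, with its activator CDC20, then marks securin and cyclin B for destruction. Transcripts of most of these genes build up in G2 and mitosis through the MuvB complex with B-MYB and through FOXM1, and they are low in cells at rest, so that in tumours they are read together as a measure of proliferation. In RNA from a whole culture, fewer cells in G2 and mitosis and less RNA per such cell cannot be told apart.

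The promoters of these genes are shown first because the MuvB complex is known to bind the element TTTGAA or TTCGAA, the cell cycle genes homology region, and NF-Y is known to bind CCAAT. A RefSeq promoter sequence (build GRCh38.p14, 250 bases before to 50 bases after a listed start) was at hand for 33 of the 40 genes, and not for AURKA, BIRC5, BUB3, FOXM1, TPX2, TTK and UBE2C. Some genes, such as CDC25B and CDC25C, had several such sequences, not all at the start of the gene. A member was counted if any of its sequences held the element. Searched as plain letters on both strands, TTTGAA was in 23 of the 33 (69.7%) and in 15.8% of the 15843 protein-coding genes with a promoter in the same table. TTCGAA was in 3 of the 33 (9.1%, against 2.1% of those genes), and CCAAT in 26 (78.8%, against 42.1%). Both CCAAT and 1 of the other elements were in 20 of the 33 (60.6%, against 7.3%). The lines below give the 150 bases before the start of 5 genes that carry both elements, 5′ to 3′ on the gene's own strand, with TTTGAA and CCAAT, or their reverse complements TTCAAA and ATTGG, in capitals. They come from chr16:23678739-23678888 (plus strand) for PLK1, chr1:43358831-43358980 (plus strand) for CDC20, chr15:59104996-59105145 (plus strand) for CCNB2, chr14:55191586-55191735 (minus strand) for DLGAP5 and chr10:128126424-128126573 (minus strand) for MKI67.
PLK1: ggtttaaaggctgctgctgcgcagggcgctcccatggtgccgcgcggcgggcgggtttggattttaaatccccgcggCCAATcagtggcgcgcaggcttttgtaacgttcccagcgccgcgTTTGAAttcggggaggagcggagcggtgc
CDC20: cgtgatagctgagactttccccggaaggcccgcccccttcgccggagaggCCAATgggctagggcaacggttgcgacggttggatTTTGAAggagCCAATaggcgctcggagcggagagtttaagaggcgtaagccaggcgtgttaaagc
CCNB2: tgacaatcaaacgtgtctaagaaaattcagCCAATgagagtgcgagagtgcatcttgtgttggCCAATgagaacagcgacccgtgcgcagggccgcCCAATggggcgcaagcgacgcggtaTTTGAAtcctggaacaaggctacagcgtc
DLGAP5: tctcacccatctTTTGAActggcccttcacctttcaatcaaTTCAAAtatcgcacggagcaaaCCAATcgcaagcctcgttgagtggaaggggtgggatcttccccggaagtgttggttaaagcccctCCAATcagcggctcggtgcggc
MKI67: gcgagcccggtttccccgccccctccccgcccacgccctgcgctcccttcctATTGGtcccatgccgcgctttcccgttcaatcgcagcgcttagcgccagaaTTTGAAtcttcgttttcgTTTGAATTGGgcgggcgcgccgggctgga
In PLK1 and CCNB2 the TTTGAA began 29 bases before the start, with the nearest CCAAT at 73 and 54 bases. CDC20 had TTTGAA at 65 bases, between CCAAT at 55 and at 100 bases. MKI67 had TTTGAA at 29 and at 47 bases, and the last base of the nearer copy is the first base of an ATTGG. The values below show that MKI67 and DLGAP5 were far apart from PLK1 and CDC20 in how they varied between the CPI-613 libraries. Whether these elements bear on that was not tested. A match of letters is a description and shows no binding.

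The G2 and mitosis genes were well transcribed in HN12. Per transcript length, the mean level in Control ran from 2.53 FPKM (counts scaled to transcript length and to the library's total) for CENPE to 226 FPKM for PTTG1, with CDC20 at 221 FPKM. The median over the 40 was 28.5 FPKM in Control, against 10.8 FPKM over all genes tested, and 33 of the 40 lay above the latter value. The libraries held 13458530 to 15486513 counts with CPI-613 and 11531942 to 12508570 counts in Control, and the lowest count of a member in any library was 33. All 8 squamous and keratinocyte markers were present, with summed counts of 58976 to 139780 with CPI-613 and 90563 to 131367 in Control. Of the other marker lists, 3 of 5 leukocyte genes were in the table and summed to 33 to 65 counts with CPI-613 and 241 to 399 in Control, of which CD14 gave 17 to 58 and 222 to 390 and the pan-leukocyte gene PTPRC 0 to 1 and 1 to 2. The 3 of 5 fibroblast genes in the table summed to 435 to 534 counts with CPI-613 and 458 to 545 in Control, mainly COL1A1, with COL3A1 at 0 and at 0 to 3. All 4 endothelial genes summed to 3 to 8 counts with CPI-613 and 17 to 35 in Control. The part of these marker counts in the results was not tested.

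The comparison of CPI-613 with Control asks how the transcripts of HN12 cells differ after 24 h with the compound. None of the 40 G2 and mitosis genes passed the test in either direction. In edgeR's quasi-likelihood test, with p adjusted by Benjamini-Hochberg over all 12671 genes and a threshold of 0.05, 1.94% of all genes were called higher and 1.24% lower. By unadjusted p, with 0.05 as the limit, the number among the 40 was likewise 0, where 8.45% of all genes were higher and 5.93% lower. DESeq2 called 0 of the 40, where it called 3.87% of all genes higher and 3.17% lower, and limma-voom called 0, where it called 1.95% higher and 1.32% lower. The log2 fold changes ran from -0.87 (MKI67) to 0.49 (UBE2C), with standard errors of 0.172 to 0.764 and edgeR's Benjamini-Hochberg adjusted p of 0.522 to 0.977. The estimate was negative for 28 of the 40, and the median was -0.32, against 0.02 over all genes tested. All 3 CPI-613 libraries lay above all 3 Control libraries for 1 gene, CDC25C, and below them for 2 genes, NCAPH and SPC25, where 11.8% of all genes lay above and 9.17% below. A p that misses the threshold does not show that the levels were alike, and the estimate with the largest standard error, that of HMMR, was -0.36 (SE 0.764).

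The CPI-613 libraries differed more among themselves than the Control libraries did, in these genes and in most others. The median standard deviation of the log2 level was 0.597 over the 3 CPI-613 libraries and 0.237 over the 3 Control libraries for the 40 genes, against 0.438 and 0.231 for all genes tested. The standard deviation was larger with CPI-613 for 35 of the 40 (87.5%) and for 81.6% of all genes. CPI-613 replicate 1 was the highest and CPI-613 replicate 3 the lowest of the group in 24 of the 40 (60%, against 36.7% of all genes), and the opposite order held in 9 (22.5%, against 45% of all genes). Summed over the 40 genes, CPM (counts scaled to the library's total, with the TMM correction) were 3866, 3429 and 3345 in CPI-613 replicates 1 to 3 and 3713, 4070 and 3781 in Control replicates 1 to 3. These sums differ far less than the single genes do, since CPI-613 replicate 3 was low in some members and high in others.

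**Figure D1:**
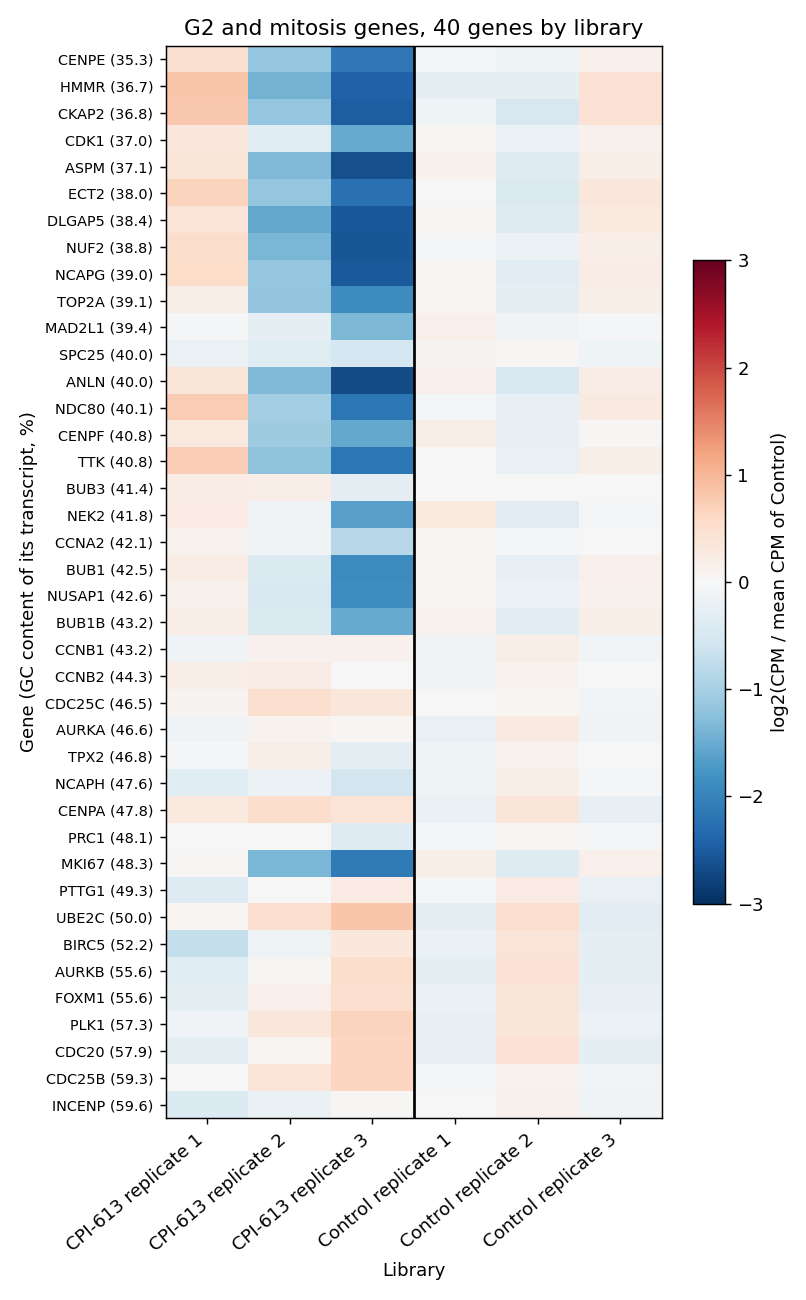
Level of each of the 40 genes in each library (columns, CPI-613 replicates 1 to 3 then Control replicates 1 to 3) as log2 of CPM over the mean CPM of Control, in rows ordered by the GC content of the transcript. Most rows at the top, below 45% GC, are above Control in CPI-613 replicate 1 and far below it in CPI-613 replicate 3, and most rows at the bottom show the opposite order.

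In the values that follow, the 3 numbers of a group are CPM in its replicates 1, 2 and 3, in that order. Among CDK1, its cyclins and its phosphatases, 4 of 6 estimates were positive and the median log2 fold change was 0.10. CDK1, the kinase that drives entry into mitosis, measured 71.02, 44.4 and 20.2 CPM with CPI-613, against 59.4, 50.5 and 62.4 CPM in Control. CCNA2, cyclin A2, which acts from S phase into early mitosis, measured 73.1, 63.6 and 37.8 CPM with CPI-613, against 71.2, 65.4 and 67.7 CPM in Control. For both, CPI-613 replicate 1 was above every Control library and CPI-613 replicates 2 and 3 below every one. The mitotic cyclins did not share this order. CCNB1, cyclin B1, measured 184, 215 and 214 CPM with CPI-613, against 183, 223 and 186 CPM in Control. CCNB2, cyclin B2, measured 64.7, 65.7 and 57.2 CPM with CPI-613, against 52.2, 60.8 and 56.1 CPM in Control. The groups overlapped for both, and CCNB1 in the lowest CPI-613 library stood at the level of the lowest Control libraries. CDC25B (gene ID 994, chromosome 20 at 3786951 to 3806115), a phosphatase that activates CDK1 at the G2 to M transition, measured 135, 177 and 212 CPM with CPI-613, against 132, 147 and 128 CPM in Control. Its log2 fold change was 0.37 (SE 0.209; edgeR, Benjamini-Hochberg adjusted p = 0.532), and CPI-613 replicate 1 lay within the Control range. CDC25C (gene ID 995, chromosome 5 at 138285265 to 138338355), the sister phosphatase, measured 21.96, 28.98 and 26.6 CPM with CPI-613, against 21.1, 21.9 and 19.7 CPM in Control. Its groups did not overlap, by a margin of less than 1 CPM between CPI-613 replicate 1 and Control replicate 2, and its log2 fold change was 0.31 (SE 0.221; edgeR, Benjamini-Hochberg adjusted p = 0.651).

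The mitotic kinases and the proteins that place them had log2 fold changes of -0.31 to 0.34, with 3 of 7 positive. PLK1 (gene ID 5347, chromosome 16 at 23678889 to 23690367), the Polo-like kinase of spindle assembly and cytokinesis, measured 165, 224 and 279.7 CPM with CPI-613, against 148, 226 and 155 CPM in Control, and its log2 fold change was 0.34 (SE 0.265; edgeR, Benjamini-Hochberg adjusted p = 0.692). AURKB, the Aurora kinase of the chromosomal passenger complex, measured 76.6, 100.1 and 141 CPM with CPI-613, against 81.05, 132 and 81.2 CPM in Control. Both were highest in CPI-613 replicate 3, and in Control both were high in replicate 2 alone. BIRC5 (survivin), which carries AURKB to centromeres, measured 157, 228 and 317 CPM with CPI-613, against 221, 332 and 213 CPM in Control. INCENP, the scaffold of the same complex, measured 101, 116 and 138 CPM with CPI-613, against 133, 145 and 124 CPM in Control. BIRC5 had its lowest value of all libraries in CPI-613 replicate 1, and INCENP likewise. AURKA, the Aurora kinase of the spindle poles, measured 110.2, 127 and 123 CPM with CPI-613, against 101, 143 and 109 CPM in Control. TPX2, which activates AURKA on microtubules, measured 247, 291 and 209 CPM with CPI-613, against 237, 278 and 257 CPM in Control. The range within a group was at most 1.41-fold for both. NEK2, a centrosome kinase, measured 21.3, 16.8 and 5.81 CPM with CPI-613, against 22.3, 14.5 and 17.5 CPM in Control, and its value in CPI-613 replicate 3 was below all 5 others.

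Of the 5 spindle assembly checkpoint genes, 4 had negative estimates, and the median log2 fold change was -0.42. MAD2L1 (gene ID 4085, chromosome 4 at 120055623 to 120066848), which binds CDC20 to hold back anaphase, measured 59.6, 49.6 and 24.2 CPM with CPI-613, against 67.4, 56.4 and 59.6 CPM in Control. Its log2 fold change of -0.46 (SE 0.334; edgeR, Benjamini-Hochberg adjusted p = 0.657) came with its lowest value in CPI-613 replicate 3, while CPI-613 replicate 1 lay within the Control range. BUB1, a kinetochore kinase of the checkpoint, measured 74.6, 47.4 and 16.9 CPM with CPI-613, against 66.9, 54.1 and 70.7 CPM in Control. BUB1B (BUBR1), a part of the inhibitor of the anaphase-promoting complex, measured 60.9, 39.05 and 18.7 CPM with CPI-613, against 56.8, 42.6 and 59.3 CPM in Control. TTK (MPS1), the kinase at the head of the checkpoint, measured 50.3, 13.2 and 6.74 CPM with CPI-613, against 30.3, 25.9 and 34.7 CPM in Control. All 3 were above Control in CPI-613 replicate 1 and below it in CPI-613 replicate 3, TTK with a 7.47-fold range within the group. BUB3, the partner of BUB1 and BUB1B, measured 253, 251 and 177 CPM with CPI-613, against 220.3, 220.0 and 215 CPM in Control, with CPI-613 replicates 1 and 2 above and CPI-613 replicate 3 below all Control libraries.

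The activator, the conjugating enzyme and a substrate around the anaphase-promoting complex were lowest in CPI-613 replicate 1 of their group. CDC20, the activator, measured 238, 305 and 458 CPM with CPI-613, against 247, 393 and 238 CPM in Control. UBE2C (gene ID 11065, chromosome 20 at 45812644 to 45816952), the ubiquitin-conjugating enzyme that works with the complex, measured 70.95, 96.9 and 121 CPM with CPI-613, against 56.4, 94.97 and 54.4 CPM in Control. Its log2 fold change of 0.49 (SE 0.302; edgeR, Benjamini-Hochberg adjusted p = 0.576) was the highest estimate of the 40, and Control replicate 2 stood close to CPI-613 replicate 2. PTTG1, securin, measured 79.4, 104 and 124 CPM with CPI-613, against 100.0, 123 and 89.5 CPM in Control. PTTG1 has near-identical copies elsewhere in the genome that could share its reads, so its level is uncertain.

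Among the 6 kinetochore and centromere genes 5 estimates were negative. SPC25 (gene ID 57405, chromosome 2 at 168861521 to 168890430), a subunit of the NDC80 complex that grips microtubules, measured 18.04, 15.9 and 14.2 CPM with CPI-613, against 21.5, 20.8 and 18.7 CPM in Control. All its CPI-613 libraries lay below all Control libraries, and the log2 fold change was -0.34 (SE 0.225; edgeR, Benjamini-Hochberg adjusted p = 0.611). Its partners in the complex spread far more. NUF2 measured 22.03, 5.84 and 2.56 CPM with CPI-613, against 14.6, 13.5 and 17.4 CPM in Control. NDC80 measured 47.6, 13.8 and 6.198 CPM with CPI-613, against 26.7, 23.5 and 33.8 CPM in Control. In both, CPI-613 replicate 1 was the highest of all libraries and CPI-613 replicates 2 and 3 were below all Control libraries. CENPE, a kinesin of the kinetochore, measured 25.9, 8.46 and 4.26 CPM with CPI-613, against 18.3, 17.3 and 21.1 CPM in Control. CENPF, a large protein of the kinetochore corona, measured 71.2, 27.8 and 20.1 CPM with CPI-613, against 65.1, 49.0 and 59.3 CPM in Control. Both followed the order of NUF2 and NDC80. CENPA (gene ID 1058, chromosome 2 at 26786056 to 26794589), the histone H3 variant of centromeres, measured 25.1, 29.6 and 27.2 CPM with CPI-613, against 17.9, 26.4 and 17.3 CPM in Control. Its log2 fold change was 0.41 (SE 0.254; edgeR, Benjamini-Hochberg adjusted p = 0.578), with Control replicate 2 within the CPI-613 range.

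All 5 spindle and microtubule proteins had negative estimates. Their median log2 fold change was -0.51, with a 3.97-fold to 9.76-fold range within the CPI-613 group. HMMR, a microtubule-associated protein of the spindle, measured 46.8, 9.92 and 4.88 CPM with CPI-613, against 21.7, 21.7 and 35.6 CPM in Control. CKAP2, a microtubule stabiliser, measured 57.5, 14.7 and 5.89 CPM with CPI-613, against 30.02, 23.5 and 44.2 CPM in Control. DLGAP5 (HURP), which bundles spindle microtubules near chromosomes, measured 42.5, 11.2 and 5.58 CPM with CPI-613, against 33.1, 24.8 and 39.7 CPM in Control. These 3 were highest of all 6 libraries in CPI-613 replicate 1 and lowest in CPI-613 replicate 3. ASPM, a protein of spindle poles, measured 36.2, 11.2 and 4.49 CPM with CPI-613, against 30.8, 21.6 and 31.9 CPM in Control. NUSAP1, which links microtubules to chromatin, measured 62.7, 41.6 and 15.8 CPM with CPI-613, against 58.6, 50.4 and 62.6 CPM in Control. CPI-613 replicate 1 exceeded every Control library in both, for NUSAP1 by less than 1 CPM.

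The 4 chromosome structure genes also had negative estimates, with a median of -0.61. MKI67 (gene ID 4288, chromosome 10 at 128096659 to 128126423), the Ki-67 protein that coats mitotic chromosomes and serves as a proliferation marker, measured 348, 132 and 77.7 CPM with CPI-613, against 381, 258 and 379 CPM in Control. CPI-613 replicate 1 lay within the Control range, while CPI-613 replicates 2 and 3 were far under it, and the log2 fold change was -0.87 (SE 0.519; edgeR, Benjamini-Hochberg adjusted p = 0.56). TOP2A (gene ID 7153, chromosome 17 at 40388525 to 40417896), the topoisomerase that untangles sister chromatids, measured 159.7, 62.2 and 38.2 CPM with CPI-613, against 147, 116 and 161 CPM in Control. Its log2 fold change was -0.71 (SE 0.493; edgeR, Benjamini-Hochberg adjusted p = 0.637) and its CPI-613 libraries had the order of MKI67, highest in replicate 1 and lowest in replicate 3. NCAPH (gene ID 23397, chromosome 2 at 96335766 to 96377091), the kleisin subunit of condensin I, measured 52.6, 60.2 and 46.2 CPM with CPI-613, against 62.3, 75.95 and 64.7 CPM in Control. Its groups did not overlap, and its log2 fold change of -0.35 (SE 0.196; edgeR, Benjamini-Hochberg adjusted p = 0.522) had the smallest p of the 40. NCAPG, another condensin I subunit, measured 46.9, 14.2 and 5.58 CPM with CPI-613, against 33.0, 25.3 and 37.04 CPM in Control, with an 8.41-fold range among the CPI-613 libraries.

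Of the 3 cytokinesis genes, ANLN (anillin), which scaffolds the contractile ring, measured 163, 50.4 and 19.8 CPM with CPI-613, against 141, 90.2 and 148 CPM in Control. ECT2, the exchange factor that activates RHOA at the midzone, measured 68.1, 19.1 and 9.06 CPM with CPI-613, against 42.1, 31.8 and 53.9 CPM in Control. Both were highest in CPI-613 replicate 1 and lowest in CPI-613 replicate 3. PRC1, which bundles the microtubules of the midzone, measured 139.8, 138 and 107 CPM with CPI-613, against 136, 145 and 136 CPM in Control, and CPI-613 replicate 3 alone was apart. FOXM1, a transcription factor of G2 genes, measured 118, 160.5 and 201 CPM with CPI-613, against 125, 185 and 121 CPM in Control. Within the CPI-613 group it had the order of PLK1 and CDC20, lowest in replicate 1 and highest in replicate 3.

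**Figure D2:**
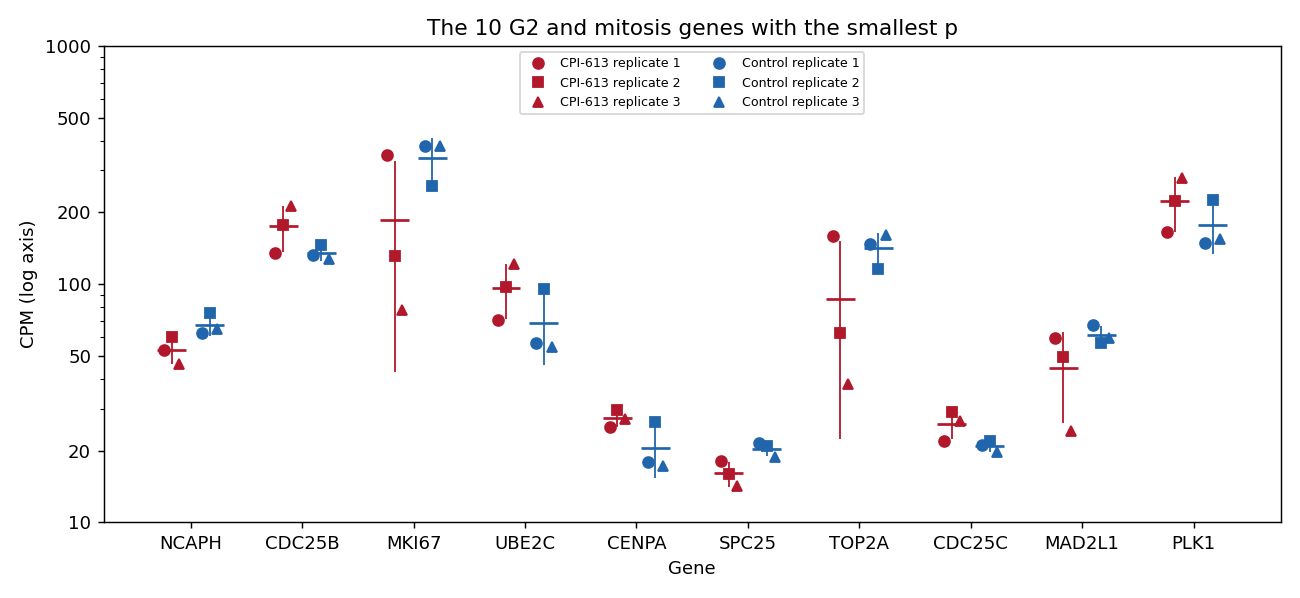
CPM on a log axis of the 10 genes with the smallest p, with symbols for replicates 1 to 3, red for CPI-613 and blue for Control, and a bar and line for the mean and 1 SD of the 3 libraries. MKI67 spans 77.7 to 348 CPM with CPI-613 and 258 to 381 CPM in Control, and in NCAPH and SPC25 all CPI-613 points lie below all Control points.

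The order of the CPI-613 libraries followed the base composition of the transcripts. GC content is that of each gene's longest coding transcript in GENCODE 29, and its median was 42.6% over the 40 genes, against 48.9% over genes tested. Across the 40 genes, the log2 difference of CPI-613 replicate 3 minus CPI-613 replicate 1 had a Pearson correlation of 0.83 with GC content and a Spearman correlation of 0.86, and across 12603 genes tested the values were 0.76 and 0.79. The same kind of relation was present within Control, where replicate 2 minus the mean of replicates 1 and 3 gave 0.77 and 0.75 across the 40 genes and 0.56 and 0.60 across all. The CPI-613 mean minus the Control mean gave 0.72 and 0.76 across the 40 genes and 0.33 and 0.45 across all. All genes in such a correlation share the same libraries and are not independent, so these values describe the libraries. Base composition and library differences moved together with the levels of these genes, and their part in the result was not tested. The adjustment described further on takes out any difference that follows GC content or length, whatever its source, and so cannot tell sources apart.

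**Figure D3:**
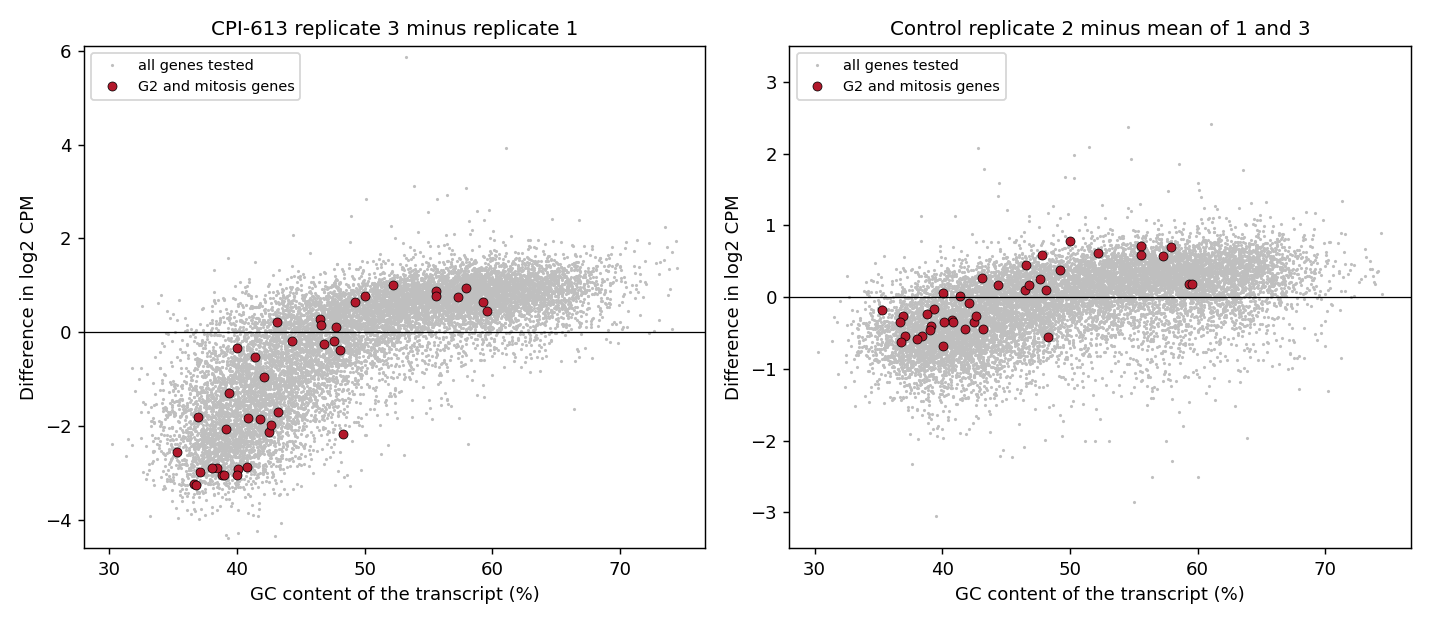
Difference in log2 CPM between libraries of a group against GC content of the transcript in percent, left for CPI-613 replicate 3 minus replicate 1 and right for Control replicate 2 minus the mean of replicates 1 and 3, for all genes tested (grey) and the 40 G2 and mitosis genes (red). The red points climb with GC content along the grey cloud in both panels, from -3.25 to 1.02 at left. MKI67, at 48.3% GC and -2.16, lies under the trend of all genes at its GC content and length, which gave -0.36.

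A split at 45% GC, chosen after the values were seen and therefore given with no test, shows both sides of this pattern. The 24 members of 35.3% to 44.3% GC had a median log2 difference of -2.10 between CPI-613 replicates 3 and 1, where the 4567 tested genes under 45% GC had -1.50. The 16 members of 46.5% to 59.6% GC had 0.54, where all tested genes of at least 45% GC had 0.59. CPI-613 replicate 1 was highest and CPI-613 replicate 3 lowest in 22 of the 24 (91.7%), as in 78.7% of all tested genes under 45% GC, and the opposite order was found in 0 of the 24, against 5.98% of those genes. On the other side, 9 of the 16 (56.2%) had the opposite order, as had 67.3% of all tested genes of at least 45% GC. Summed CPM of the 24 were 1781, 1112 and 736 in CPI-613 replicates 1 to 3, against 1513, 1343 and 1594 in Control replicates 1 to 3. Summed CPM of the 16 were 2085, 2318 and 2610 in CPI-613 replicates 1 to 3, against 2200, 2727 and 2187 in Control replicates 1 to 3. The median log2 fold change of CPI-613 over Control was -0.41 for the 24 and 0.07 for the 16, and over all tested genes on the same sides it was -0.23 and 0.15.

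Base composition did not order every member. CCNB1 and BUB1B both have 43.2% GC, yet the log2 difference between CPI-613 replicates 3 and 1 was 0.22 for CCNB1 and -1.70 for BUB1B. MKI67 has 48.3% GC, and its difference was -2.16 where the trend of all genes at its GC content and length gave -0.36. After the trend was taken off, the difference was -1.80 for MKI67, -1.59 for NUF2, -1.58 for NDC80 and -1.40 for TTK, and on the other side it was 1.08 for BUB3, 1.01 for CCNB1 and 0.81 for SPC25. The trend is taken at each gene's longest coding transcript, which need not be the one expressed. For BUB3 that transcript has 7828 bases and 41.4% GC, while its coding part has 48.3% GC, so the value of BUB3 is uncertain. The median of this difference over the 40 genes went to -0.14, and over the 24 members under 45% GC to -0.81, where all tested genes under 45% GC had -0.05.

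Partners of the same complex can be set side by side in each library. The lines below give 90 bases at the midpoint of the coding sequence of 4 pairs, 5′ to 3′ from the GENCODE 29 transcript (GRCh38), with G and C in capitals, so that their composition can be seen beside their levels.
NCAPG: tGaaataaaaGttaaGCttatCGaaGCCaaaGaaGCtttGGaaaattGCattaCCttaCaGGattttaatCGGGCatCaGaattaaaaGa
NCAPH: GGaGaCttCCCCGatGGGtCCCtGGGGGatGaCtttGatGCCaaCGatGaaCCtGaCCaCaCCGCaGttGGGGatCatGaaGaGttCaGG
NUF2: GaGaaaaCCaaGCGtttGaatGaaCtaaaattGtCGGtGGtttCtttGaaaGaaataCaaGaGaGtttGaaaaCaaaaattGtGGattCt
SPC25: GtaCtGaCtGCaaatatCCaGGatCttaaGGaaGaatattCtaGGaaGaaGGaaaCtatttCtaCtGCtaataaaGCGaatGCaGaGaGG
CDK1: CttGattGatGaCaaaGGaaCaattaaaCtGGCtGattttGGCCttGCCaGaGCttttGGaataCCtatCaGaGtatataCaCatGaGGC
CCNB1: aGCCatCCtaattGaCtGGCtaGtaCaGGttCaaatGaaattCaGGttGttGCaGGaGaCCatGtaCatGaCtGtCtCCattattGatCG
AURKB: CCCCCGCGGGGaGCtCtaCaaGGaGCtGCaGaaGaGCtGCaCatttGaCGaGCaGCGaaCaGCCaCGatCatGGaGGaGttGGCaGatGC
INCENP: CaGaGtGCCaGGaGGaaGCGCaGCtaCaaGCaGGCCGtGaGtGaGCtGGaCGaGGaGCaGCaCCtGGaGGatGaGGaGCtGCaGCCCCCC
The whole transcripts have 39.0% GC for NCAPG and 47.6% for NCAPH, 38.8% for NUF2 and 40% for SPC25, 37.0% for CDK1 and 43.2% for CCNB1, and 55.6% for AURKB and 59.6% for INCENP. On the FPKM scale, the level of NCAPG over that of NCAPH was 0.738, 0.180 and 0.0903 in CPI-613 replicates 1 to 3, against 0.433, 0.276 and 0.471 in Control replicates 1 to 3. NUF2 over SPC25 was 0.749, 0.231 and 0.113 in CPI-613 replicates 1 to 3, against 0.412, 0.401 and 0.594 in Control replicates 1 to 3. CDK1 over CCNB1 was 0.422, 0.225 and 0.102 in CPI-613 replicates 1 to 3, against 0.356, 0.247 and 0.367 in Control replicates 1 to 3. In these 3 pairs the CPI-613 libraries lay on both sides of Control. AURKB over INCENP, 2 transcripts rich in G and C, was 3.43, 3.86 and 4.599 in CPI-613 replicates 1 to 3, against 2.85, 4.27 and 2.98 in Control replicates 1 to 3. For NUF2 the log2 difference between CPI-613 replicates 3 and 1 was -3.03, where the trend at its GC content and length gave -1.44, and for SPC25 it was -0.34, where the trend gave -1.15. What remained after the trend was not tested.

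**Figure D4:**
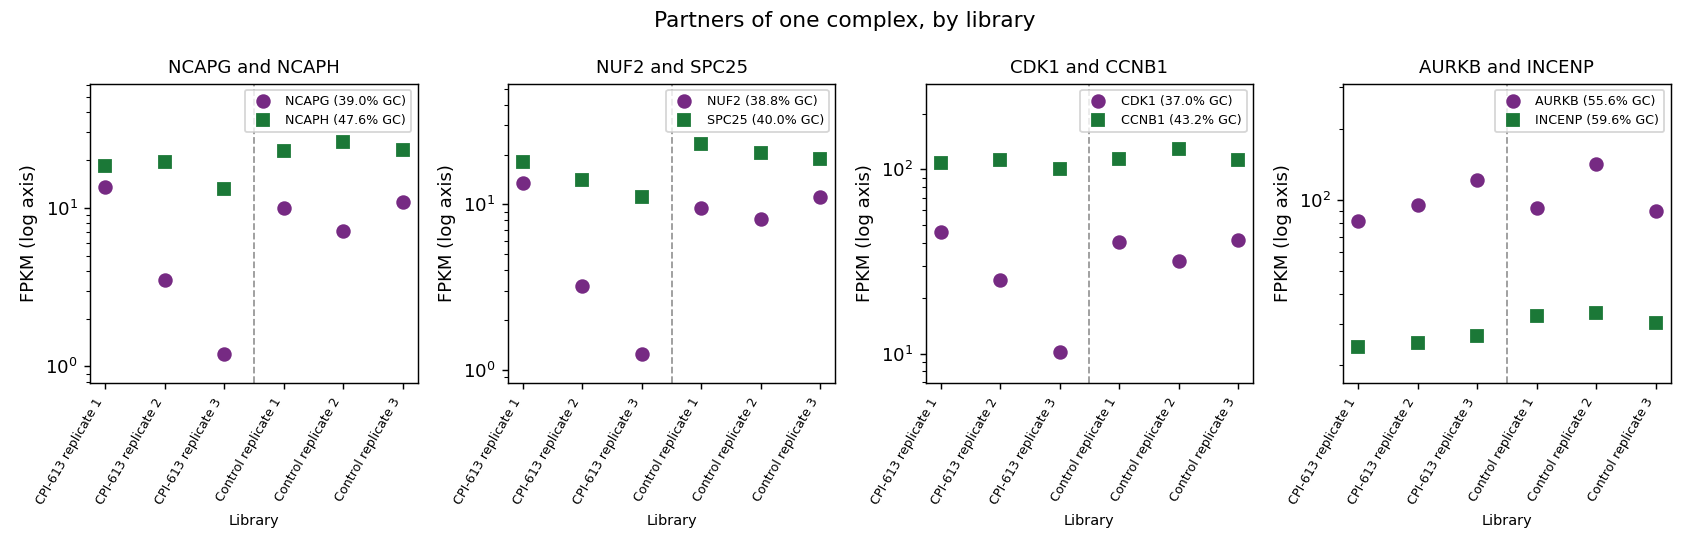
FPKM on a log axis of both genes of 4 pairs of partners in each library, CPI-613 replicates 1 to 3 left of the dashed line and Control replicates 1 to 3 right of it. NCAPG, NUF2 and CDK1 (circles) are highest in CPI-613 replicate 1 and lowest in CPI-613 replicate 3, while NCAPH, SPC25 and CCNB1 (squares) differ less between these libraries.

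Leaving out CPI-613 replicate 1 changed the count of calls. Without that library, 10 of the 40 genes were called lower and 0 higher by edgeR's quasi-likelihood test with Benjamini-Hochberg adjustment, where 3.43% of all genes were lower and 3.66% higher. The 10, named after their values were seen, were ANLN, ASPM, CENPE, CENPF, DLGAP5, HMMR, MKI67, NUF2, TOP2A and TTK. In this comparison of 2 CPI-613 libraries with 3 Control libraries, 22 of the 40 lay below all Control libraries and 4 above, where 24.4% of all genes lay below and 25.4% above, and the median log2 fold change was -0.55. In the scaling of all 6 libraries, CPI-613 replicates 2 and 3 lay below all Control libraries in 20 of the 24 members under 45% GC. That is 83.3%, against 44.9% of all tested genes under 45% GC. In the 16 members of at least 45% GC it was 2 (12.5%, against 12.6%). For MKI67 the log2 fold change without CPI-613 replicate 1 was -1.69 (SE 0.299; edgeR, Benjamini-Hochberg adjusted p = 0.022; 4.05e-06 to 1 across alternatives). For TOP2A it was -1.49 (SE 0.276; edgeR, Benjamini-Hochberg adjusted p = 0.025; 2.62e-05 to 1 across alternatives). DLGAP5 had the largest value, -1.95 (SE 0.381; edgeR, Benjamini-Hochberg adjusted p = 0.0295; 7.01e-06 to 1 across alternatives), in this setting. Of the 10, 9 have transcripts under 45% GC, and MKI67 is the exception. Leaving out any 1 of the other 5 libraries gave 0 calls among the 40 with edgeR and 0 with DESeq2, and at an unadjusted p under 0.05 edgeR had 2 members, both higher, without Control replicate 2 and 0 in the other settings. Over all genes, the calls in those edgeR fits ranged from 0 to more than in the fit that kept every library. Without Control replicate 1 or Control replicate 3 the count over all genes was 0, and without CPI-613 replicate 2 it was 7 higher (0.0545%) and 0 lower. Without Control replicate 2, 0.971% of all genes were higher and 0.73% lower, and without CPI-613 replicate 3, 2.75% were higher and 2.37% lower.

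Without CPI-613 replicate 1, DESeq2 called 15 of the 40 lower and 0 higher, where 12.5% of all genes were lower and 6.78% higher, and the 15 held all 10 of edgeR. When the dependence of each library on GC content and length was taken out as well, edgeR called 12 of the 40 lower and 1 higher (BUB3), where 9.21% of all genes were lower and 11.8% higher. These 12 held 8 of the 10, and not CENPE and CENPF. The call of BUB3 rests on the GC content and length of its longest transcript, which need not be the one expressed.

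With all 6 libraries kept, the same adjustment for GC content and length lowered the spread between libraries of a group, which it does by design. The median standard deviation of the log2 level went to 0.291 over the CPI-613 libraries and 0.157 over the Control libraries for the 40 genes, against 0.236 and 0.168 for all genes. For the 24 members under 45% GC it was still 0.51 and 0.127, against 0.374 and 0.179 for all such genes. For the 16 of at least 45% GC it was 0.10 and 0.181, against 0.18 and 0.161. No member was called in this fit (edgeR, Benjamini-Hochberg), where 6.72% of all genes were called higher and 5.08% lower. By unadjusted p under 0.05, 1 member was higher and 3 were lower, where 14.6% of all genes were higher and 11.1% lower, so the members' shares lay below those of all genes. The median log2 fold change of the 40 in this fit was -0.18. CDC25B alone lay above all Control libraries, and ASPM, INCENP, NCAPH, NUSAP1 and TOP2A below, where 17.9% of all genes lay above and 13.9% below. For MKI67 the adjusted estimate was -0.91 (SE 0.419; edgeR, Benjamini-Hochberg adjusted p = 0.223), and for TOP2A it was -0.44 (SE 0.153; edgeR, Benjamini-Hochberg adjusted p = 0.115). SPC25, whose groups did not overlap before, had 0.05 (SE 0.237; edgeR, Benjamini-Hochberg adjusted p = 0.916), so that its direction turned under this scaling. The adjusted estimates were also smaller in size for MAD2L1 (-0.07), PLK1 (0.19) and CDC25B (0.24). For other members they were larger in size, among them BUB3 (0.06 before and 0.475 after), CCNB1 (0.05 and 0.30) and INCENP (-0.18 and -0.29). The adjusted value of BUB3 is uncertain for the reason given above, its longest transcript. When Control replicate 2 was left out of the adjusted fit, UBE2C was called higher, by 0.62 on the log2 scale (edgeR, Benjamini-Hochberg adjusted p = 0.0229; 0.0229 to 1 across alternatives) and 0 members lower, where 6.07% of all genes were higher and 5.22% lower.

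**Figure D5:**
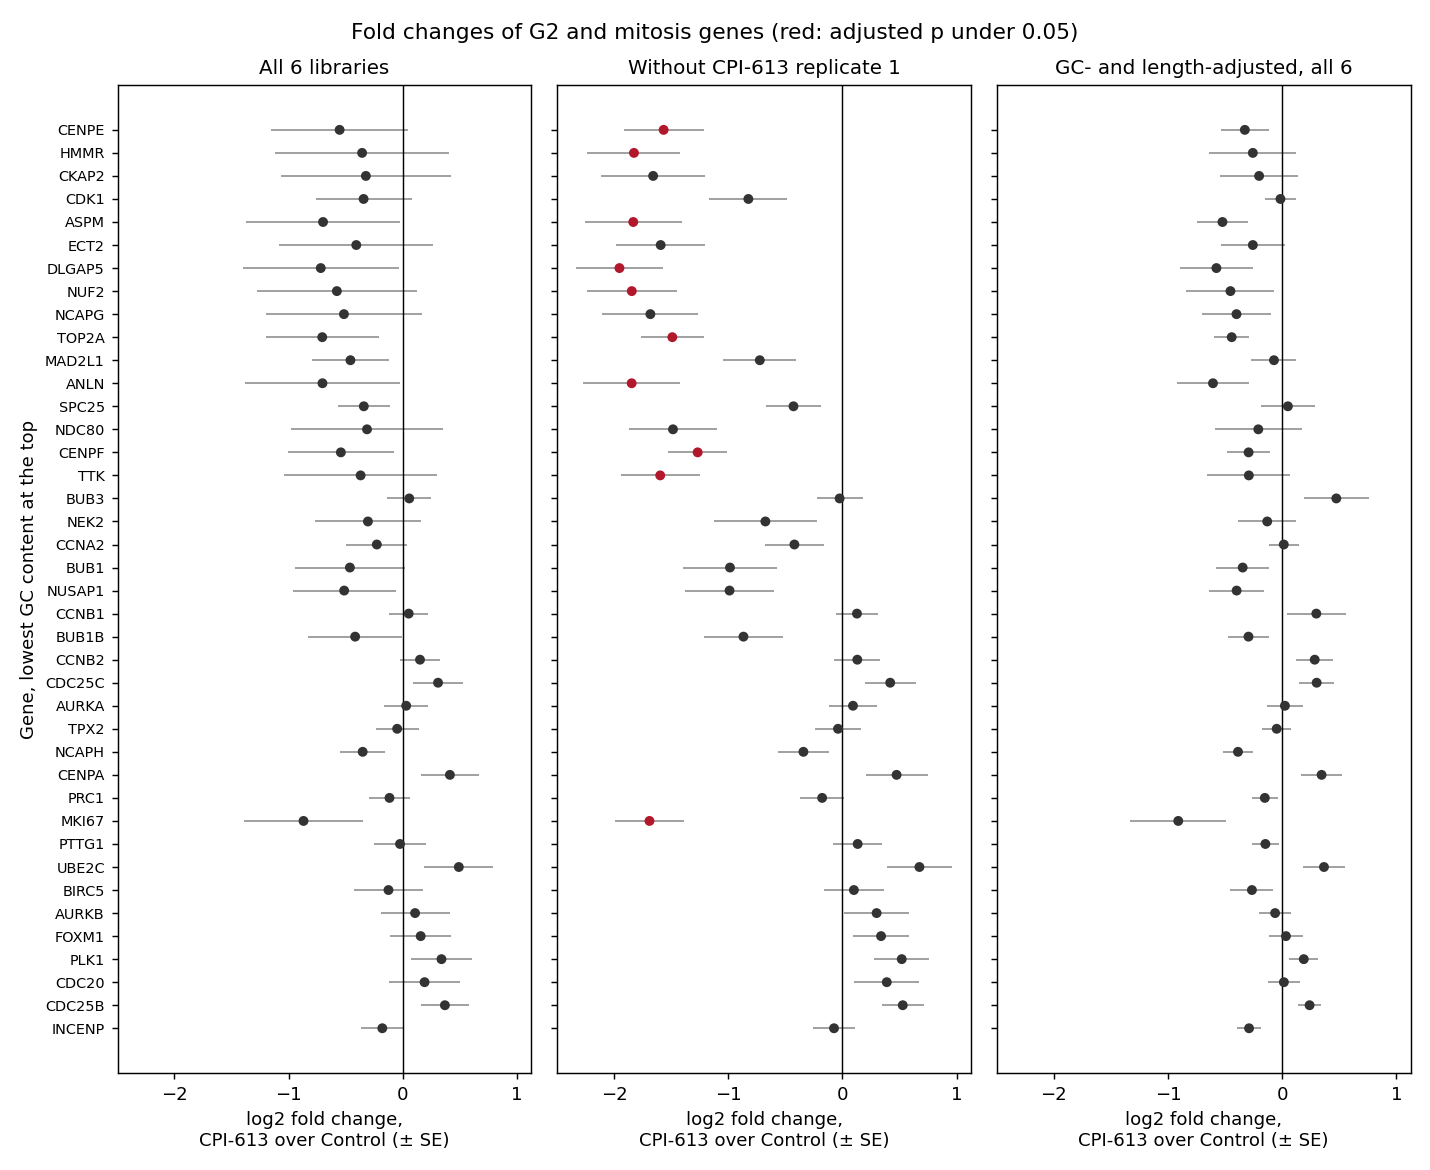
Log2 fold change of CPI-613 over Control with its standard error for each of the 40 genes, lowest GC content at the top, with all 6 libraries (left), without CPI-613 replicate 1 (middle) and with the GC and length adjustment (right). Red points, the 10 genes with an adjusted p under 0.05, appear in the middle panel alone, and they lie between -1.95 and -1.27.

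Other genes of the same pathways, from lists written with earlier results of these data known, gave few calls in the fit of all 6 libraries. Of 18 other CDK1 regulators and G2 checkpoint genes, 2 were called higher and 0 lower, with a median log2 fold change of -0.03. CCNA1, the cyclin A best known from the germ line, measured 8.2, 11.1 and 8.37 CPM with CPI-613, against 2.04, 1.63 and 1.99 CPM in Control, a log2 fold change of 2.28 (SE 0.277; edgeR, Benjamini-Hochberg adjusted p = 0.0107; 1.25e-08 to 0.0928 across alternatives). GADD45A, a stress-induced protein that can inhibit CDK1 with cyclin B1, measured 90.6, 87.9 and 87.3 CPM with CPI-613, against 22.5, 37.9 and 23.1 CPM in Control, a log2 fold change of 1.67 (SE 0.256; edgeR, Benjamini-Hochberg adjusted p = 0.0202; 7.12e-12 to 0.133 across alternatives). The groups were far apart in both. None of 35 other kinetochore and checkpoint genes, 17 subunits and partners of the anaphase-promoting complex, 24 other spindle, centrosome and cytokinesis genes, or 13 MuvB, MYB and NF-Y factors was called with edgeR, with 2, 0, 0 and 0 of them at an unadjusted p under 0.05. The median log2 fold changes of these lists were -0.27, -0.02, -0.15 and -0.22. Of all genes, 1.94% were called higher and 1.24% lower, and 8.45% and 5.93% were at an unadjusted p under 0.05.

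Among those lists, SKA1, a kinetochore protein that tracks microtubules, measured 25.7, 26.9 and 18.4 CPM with CPI-613, against 12.4, 12.5 and 11.6 CPM in Control, and its log2 fold change of 0.96 did not pass (SE 0.247; edgeR, Benjamini-Hochberg adjusted p = 0.106; 0.000434 to 0.462 across alternatives). MAD1L1, which recruits MAD2L1 to kinetochores, measured 75.2, 102 and 144 CPM with CPI-613, against 52.3, 83.3 and 53.9 CPM in Control, with a log2 fold change of 0.76 (SE 0.304). With the GC and length adjustment both were called higher (edgeR, Benjamini-Hochberg adjusted p = 0.00607 for SKA1 and 0.0365 for MAD1L1). All CPI-613 libraries were above all Control libraries for SKA1, while for MAD1L1 CPI-613 replicate 1 was below Control replicate 2. Their partners NDC80 (-0.31, SE 0.668) and MAD2L1 (-0.46, SE 0.334) had negative estimates, -0.21 and -0.07 with the adjustment. Neither partner was called in these fits. The smallest p of the remaining lists belonged to ANAPC16 (log2 fold change 0.29, SE 0.155, and 0.46 with the GC and length adjustment), UBE2S (0.58, SE 0.383), KNSTRN (-0.38, SE 0.217), HAUS1 (-0.48, SE 0.286, and -0.24 with the same adjustment), LIN37 (0.68, SE 0.353) and RBBP4 (-0.22, SE 0.162, but 0.24 with it), none of which passed.

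The 17 cohesin and other condensin genes had a median GC content of 40.8%, a median log2 fold change of -0.41 and 0 calls with edgeR (1 at an unadjusted p under 0.05), and the median log2 difference between CPI-613 replicates 3 and 1 was -2.44. Without CPI-613 replicate 1, 6 of the 17 were called lower by edgeR, where 3.43% of all genes were. In the same setting 3 of the 35 other kinetochore and checkpoint genes were lower, 3 of the 17 E2F factors and G1/S cyclins were lower and 1 higher, 2 of the 18 other CDK1 regulators were higher, and the other lists had 0 calls. NCAPD3, a condensin II subunit, measured 48.8, 47.7 and 40.9 CPM with CPI-613, against 66.5, 66.3 and 67.4 CPM in Control, with a log2 fold change of -0.54 (SE 0.179; edgeR, Benjamini-Hochberg adjusted p = 0.2, and 0.0183 with the GC and length adjustment). PDS5B, a cohesin regulator, measured 34.9, 10.3 and 4.26 CPM with CPI-613, against 32.3, 22.3 and 32.99 CPM in Control, with a log2 fold change of -0.82 (SE 0.685). NCAPD3 was below Control in each CPI-613 library, and PDS5B varied in the manner of NCAPG.

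Genes that act earlier in the cycle were set beside these. Of 34 DNA replication genes 0 were called with edgeR. At an unadjusted p under 0.05 there were 6, both directions together, where 8.45% of all genes were higher and 5.93% lower. MCM6, a subunit of the replicative helicase, measured 53.8, 56.04 and 49.1 CPM with CPI-613, against 85.6, 80.2 and 79.2 CPM in Control, and PCNA, the sliding clamp of DNA polymerases, measured 48.5, 52.4 and 55.9 CPM with CPI-613, against 77.8, 93.6 and 77.1 CPM in Control. Their log2 fold changes were -0.62 (SE 0.17) and -0.67 (SE 0.182), and the groups did not overlap in either. With the GC and length adjustment 5 of the 34 were called lower, where 5.08% of all genes were. PCNA was among them, with an adjusted estimate of -0.61 (edgeR, Benjamini-Hochberg adjusted p = 0.0407), and MCM6 was not, with -0.35 (edgeR, Benjamini-Hochberg adjusted p = 0.389). Of 17 tested E2F factors and G1/S cyclins 1 was called higher and 1 lower. CDKN1A (p21), an inhibitor of cyclin-dependent kinases, measured 181, 259.5 and 358 CPM with CPI-613, against 66.6, 54.3 and 86.4 CPM in Control, a log2 fold change of 1.95 (SE 0.306; edgeR, Benjamini-Hochberg adjusted p = 0.0216; 1.69e-10 to 0.14 across alternatives). E2F2, an activator of S phase genes, measured 2.64, 2.15 and 4.34 CPM with CPI-613, against 11.2, 15.8 and 11.5 CPM in Control, a log2 fold change of -2.07 (SE 0.349; edgeR, Benjamini-Hochberg adjusted p = 0.0273; 6.87e-09 to 0.16 across alternatives). Differences between these lists and the 40 G2 and mitosis genes were not tested.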

How the data were processed

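Total RNA of HN12 cells, 3 samples with CPI-613 and 3 with DMSO, was isolated by TRIzol, and libraries were built with NEBNext Ultra II reagents and sequenced by DNBSEQ, per the labels' protocols. STAR 2.5, HTSeq, CASAVA, DESeq2, edgeR 3.16.5 and hg38 appear in the submitters' processing notes, without their roles. Whether counting used strand is not given in the sources used here, so reads of a gene and of an antisense partner cannot be told apart. The authors deposited estimated counts per RefSeq transcript (79031 transcripts), and a table per gene whose unit is not named. The deposited gene values were taken as FPKM, because over 1430 single-transcript genes with at least 100 counts the value per count followed the inverse of the library total within 0.4%.

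Counts were summed per gene and rounded. In 27 transcripts a cell holds a date in place of a number, and these transcripts were dropped from every library, at the cost of 3 genes, none of them a G2 or mitosis gene. The 53 genes without a symbol held 0.016% of the counts. After filterByExpr (minimum count 10, total 15) and TMM scaling, CPI-613 was tested against Control by the quasi-likelihood test of edgeR 4.0.16, with group as the one term, two-sided, and Benjamini-Hochberg adjustment over 12671 genes at 0.05; all 40 members passed the filter. CPM use the TMM-scaled total, and log2 levels a prior count of 2. The GC and length adjustment took from each library its spline trend (5 degrees of freedom each) over the longest GENCODE 29 transcript, matched for 99.46% of tested genes. No pair of libraries agreed within counting noise, with a chi-square per degree of freedom of at least 3.86. With 3 libraries a group, precision rests on their spread and not on depth.

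The members, pathway lists and tests were chosen with earlier results of these data known. Values per library were given for all members, in full for the 10 with the smallest p since none was called. Of each pathway list up to 4 called genes were named, or else the 2 with the smallest p. Alternatives were other scalings and filters, DESeq2 1.42.0, limma-voom (limma 3.58.1), limma on log2(FPKM + 0.5) and log2(FPKM + 0.1), an adjusted p of 0.01, a replicate block, the GC and length adjustment, and leaving out each library. The scripts were tested on simulated counts whose spread per gene was estimated from these data. The main edgeR fit recovered 8 of 97 genes changed 2-fold (8.2%) and 67 of 96 changed 4-fold (69.8%), with 4 false calls. At this spread, a change of 2-fold or less would mostly go uncalled. Coordinates and promoters come from RefSeq, GRCh38.p14.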

Additional observations from a re-analysis of the deposited data

How the results depend on the processing

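Over 31 alternatives the number of G2 and mitosis genes called stayed at 0 in each direction in every fit of all 6 libraries. With edgeR and a library left out, 0 were higher and 0 to 10 lower, the 10 without CPI-613 replicate 1. DESeq2 and GC-adjusted fits without a library were added after seeing the data. Without CPI-613 replicate 1, DESeq2 called 15 lower, and the GC-adjusted fit called 12 lower and 1 higher; without Control replicate 2 the GC-adjusted fit called 1 higher, UBE2C. The median log2 fold change of the 40 was negative in every alternative, from -0.60 with limma on log2(FPKM + 0.1) to -0.05 without CPI-613 replicate 3.

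Members above all Control libraries numbered 0 with upper quartile scaling, library size only, no filter and both FPKM pseudocounts. Of all genes, 1222 of 12671, 1051 of 12671, 1673 of 16301 and 1022 of 12100 lay above in these settings. With a library left out they numbered 0 to 8, namely 4 and 3 without CPI-613 replicates 1 and 3, 8 without Control replicate 2 and 0 without Control replicate 1 or 3, the same as with DESeq2. Of all genes, 3241 of 12776 and 2315 of 12853 lay above without CPI-613 replicates 1 and 3. Without Control replicates 1, 2 and 3 it was 1621 of 12786, 3002 of 12871 and 1646 of 12811. GC-adjusted, they numbered 5 and 2 without CPI-613 replicates 1 and 3, and 11 without Control replicate 2. The counts over all genes were 3675 of 12704, 3020 of 12778 and 3618 of 12798. Members below all Control libraries numbered 4 with upper quartile scaling, library size only and both FPKM pseudocounts, and 5 GC-adjusted with or without the block. Of all genes, 1533 of 12671, 1999 of 12671, 1833 of 12100 and 1756 of 12603 lay below in these settings. With a library left out they numbered 2 to 22, with 22 without CPI-613 replicate 1, also with DESeq2. Over all genes the count below ran from 1253 of 12786 without Control replicate 1 to 3118 of 12776 without CPI-613 replicate 1. GC-adjusted, they numbered 5, 6 and 8 without Control replicates 1, 2 and 3, and 19 and 5 without CPI-613 replicates 1 and 3. Over all genes it was 1974 of 12714, 2613 of 12798 and 2048 of 12736, and 3145 of 12704 and 2354 of 12778.

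Over all genes, calls higher numbered 491 with DESeq2, 847 GC-adjusted, 109 with the replicate block, 487 with the block and GC adjustment and 54 at an adjusted p of 0.01. Calls lower numbered 259 with library size only, 402 with DESeq2, 640 GC-adjusted, 82 with the block, 404 with the block and GC adjustment, 246 on log2(FPKM + 0.5) and 16 at 0.01. With a library left out, edgeR called 0 to 467 higher and 0 to 438 lower: 0 and 0 without Control replicate 1 or 3 (591 and 473, and 620 and 498, at an unadjusted p under 0.05), 467 and 438 without CPI-613 replicate 1, 7 and 0 without its replicate 2, 353 and 304 without its replicate 3, and 125 and 94 with Control replicate 2 left out. GC-adjusted fits gave 1505 higher and 1170 lower without CPI-613 replicate 1, 777 and 668 without Control replicate 2, and 828 and 623 without CPI-613 replicate 3, with 269, 279 and 260 lower without Control replicate 1, Control replicate 3 and CPI-613 replicate 2. DESeq2 gave 866 and 1595, 377 and 314, and 477 and 502 without CPI-613 replicate 1, Control replicate 2 and CPI-613 replicate 3. Scaling by library size only moved the median of all genes to -0.17, and its calls split 229 higher to 259 lower, against 246 to 157 with TMM. The cause of these differences was not tested.

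Of 1054 values of 34 named genes, 19 turned their sign. SPC25 had 0.05 GC-adjusted and 0.03 with the block too, then 0.05, 0.19, 0.23 and 0.10 GC-adjusted without Control replicates 1 and 2 and CPI-613 replicates 1 and 2. RBBP4 had 0.24 and 0.15, then 0.20, 0.43 and 0.10 without Control replicates 1, 2 and 3 and 0.52 and 0.32 without CPI-613 replicates 1 and 2. MAD2L1 had 0.07 and 0.09 GC-adjusted without Control replicate 2 and CPI-613 replicate 1. Over left-out libraries HMMR ran from -1.83 to 0.11 and TTK from -1.60 to 0.07, both positive without CPI-613 replicate 3, also with DESeq2 (0.09 and 0.05). No label says whether libraries of the same replicate number were paired. Deviations of same-numbered libraries correlated at 0.46, -0.10 and -0.61, against 0.68 for CPI-613 replicate 3 with Control replicate 2. These correlations cannot decide on pairing, since differences between libraries that follow GC content also enter them. The block changed no call among the 40 genes. With 3 libraries a group, the standard errors of the 40 ran from 0.172 to 0.764.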

Other observations

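The transcript estimates describe the make-up of some members and carry no test. The 40 genes had 206 RefSeq transcripts, up to 18 for a gene, and 7 genes had a single transcript. For BUB3, transcript NM_001007793 took 58.7%, 60.7% and 72.1% of the gene's estimated counts in CPI-613 replicates 1 to 3, against 57.5%, 61.6% and 60.6% in Control replicates 1 to 3, so that CPI-613 replicate 3 stood apart. For ANLN, transcript NM_001284301 took 16.9%, 38.4% and 48.7% in CPI-613 replicates 1 to 3, against 5.8%, 9.5% and 4.7% in Control replicates 1 to 3, and the groups did not overlap. Nor did they for CDC25B transcript NM_001287519, at 0.6%, 0.0% and 0.0% against 25.4%, 16.8% and 8.5%. No set rule picked these transcripts, and how many of the 206 did not overlap was not counted. Not scaled to the library's total, the estimated counts of ANLN transcript NM_001284301 were 387, 252 and 124 with CPI-613, against 105, 110.4 and 92.1 in Control. The main ANLN transcript, NM_018685, had 1089, 247 and 131 counts with CPI-613, against 1271, 673 and 1280.1 in Control. Reads shared between transcripts are split by estimate, and how the authors did this is not given in the sources used here.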
